A study of Morus alba with 4 samples.

Results

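A set of 155 predicted messenger RNAs was strongly repressed in leaves of droughted Indian mulberry (Morus alba, genotype Dudia white). The members were chosen among 27648 rows with a RefSeq predicted-mRNA identifier, out of 37553 rows measured in 4 leaf RNA libraries. A row was taken when the lower of its 2 well-watered values was at least 50 and at least 3 times the higher of its 2 drought values, with that drought value taken as at least 1. In all, 179 rows met the rule, and rows with the same 4 values were counted once, which left 155. The values that chose the members are those described below, so their fall is a description and carries no test.

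A messenger RNA carries the sequence of a gene to the ribosome, and its level in a leaf depends on how fast it is made and how fast it decays. Plants that run short of water close their stomata, the pores of the leaf surface, and slow their growth. Water shortage is widely known to lower many transcripts of leaves and to raise others, with the hormone abscisic acid as a main signal. The files do not pair the identifiers with gene names, so which of these processes the 155 members belong to was not analysed here, and no sequence of a member is shown.

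Plants were grown as bushes for 3 months in pots of about 30 kg. The well-watered control was kept at 100% of field capacity, the water that soil holds after draining, and the drought group at 40% for 14 days. Both groups were of the same genotype, and mature leaf, which the labels describe as mesophyll, was sequenced from 2 samples per group. The series calls the samples of a group biological replicates, and nothing says whether plants were pooled. The libraries are called watered (well watered) libraries 1 and 2 and drought libraries 1 and 2, numbered in the order of deposition. With no gene names, the tissue could not be checked against markers. In bulk leaf RNA, fewer cells of a type and less RNA per cell cannot be told apart.

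Each value is a read count that the authors multiplied by 1 factor per library and rounded to a whole number, here called a normalized value. A single read counted as 1.22 in watered library 1 and as 0.86 in library 2, and as 1.11 and 0.84 in the corresponding drought libraries. A value of 50, the entry level of the rule, therefore stood for 40.9 to 59.5 reads. The predicted-mRNA rows summed to between 11174504 and 15683648 per library, of which a single row that is no member held 47.0% to 60%. The values are not divided by transcript length, so levels of different mRNAs are not compared as amounts of RNA, and ranks, bands and sums are those of normalized values.

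In watered leaf the members were spread over moderate to high levels. Their mean well-watered value ran from 53 to 5712, with a median of 168. The middle members, from the lower to the upper quartile, lay between 94.5 and 378. All 11914 distinct predicted mRNAs with at least 50 in both watered libraries had a median of 186 and quartiles of 107 and 355, close to those of the members. Of these 11914 the members made up 1.3%. The share was 1.75% for starting means of 50 to under 100 (46 members), 1.08% for 100 to under 200 (40 members) and 1.1% for 200 to under 500 (41 members). It was 1.24% for 500 to under 1000 (16 members) and 2.17% at 1000 and above (12 members).

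**Figure D1:**
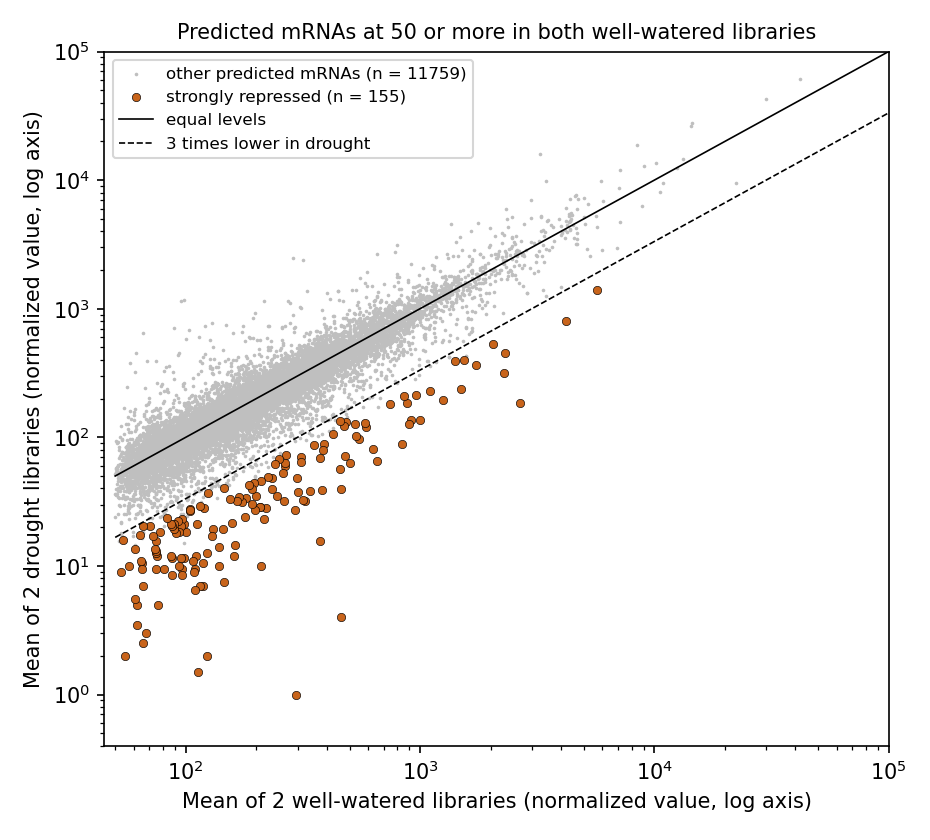
Mean normalized value in the 2 drought libraries against that in the 2 watered libraries, on log axes, for predicted mRNAs with at least 50 in both watered libraries. Each point is 1 distinct set of values, the 155 strongly repressed ones in orange and the other 11759 in grey; all orange points lie below the dashed line of a 3 times lower level, as the rule requires, and grey points below it failed the rule in single libraries. The 3 other predicted mRNAs above 100000 lie outside the axes.

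The member with the highest well-watered mean, XM_010101360.2, had 6216 and 5208 in watered libraries 1 and 2, against 1487 and 1305 in drought libraries 1 and 2. Its mean fell from 5712 ± 713 to 1396 ± 129 (SD, n = 2), which left 24.4%. The second member by starting level went from 4668 and 3761 to 859 and 752, and 19.1% was left. In both, each drought value lay below each well-watered value, as the rule requires. The libraries of a treatment were in the same order, library 1 above library 2.

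The third member by starting level fell further than its neighbours in rank. It had 3023 and 2295 in watered leaf, against 184 and 186 in droughted leaf. Only 6.96% of its level was left, and the drought libraries differed by 2 units. The fourth went from 2464 and 2143 to 459 and 451. The fifth went from 2253 and 2315 to 339 and 296.

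Members ranked 6 to 12 began between 2126 and 1039 in single libraries. The sixth had 2126 and 1952 in watered leaf and 592 and 475 in droughted leaf. The ninth had 1510 and 1476 against 263 and 212. The tenth, with 1447 and 1362 against 362 and 427, kept the largest part of the 12, at 28.1%. In each of these 12 the higher drought value lay below the lower well-watered one by a factor of at least 3.19, where the rule requires at least 3. The widest gap within a treatment was that of the seventh in drought, with 426 and 300, a 1.42-fold difference.

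**Figure D2:**
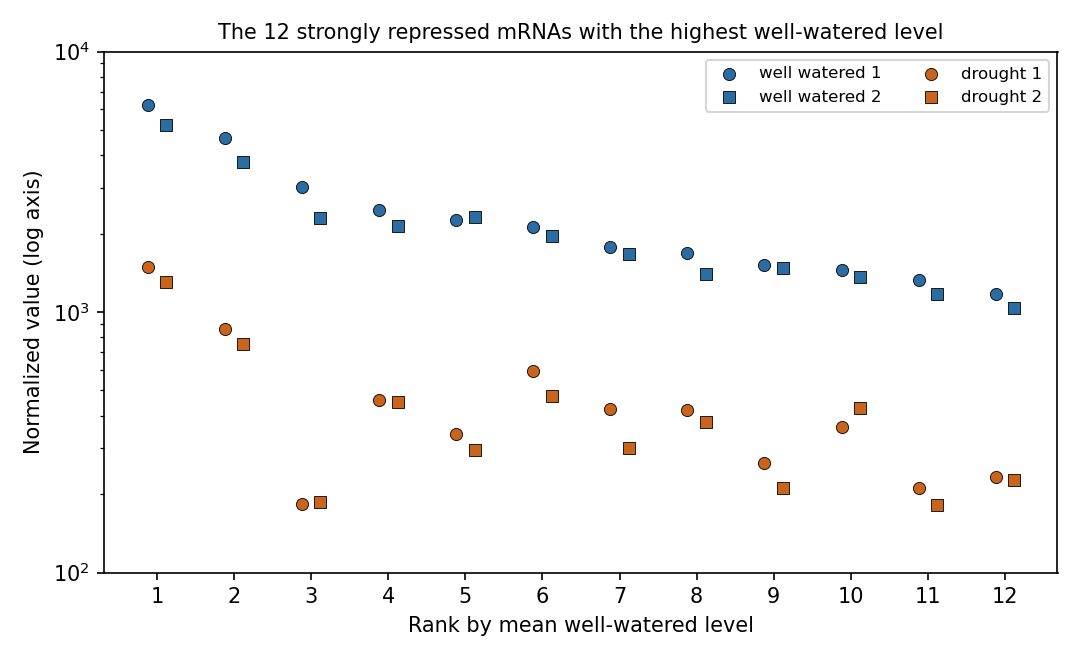
Normalized value (log axis) of the 12 strongly repressed mRNAs with the highest well-watered mean, in each of the 4 libraries. Blue marks the well-watered and orange the drought libraries, circles library 1 and squares library 2; the third member drops by the largest factor, to 184 and 186, while the first stays highest, at 1487 and 1305.

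The 12 members with the highest values held a large part of the summed normalized values of the set. Of the summed member values they made up 45.7% and 44.5% in watered libraries 1 and 2, and 52.1% and 46.3% in the drought pair. Summed over all 155 members, the values were 64976 and 57980 in watered libraries 1 and 2, against 11201 and 11223 in drought libraries 1 and 2. The members thus took 0.469% and 0.433% of the predicted-mRNA sum in watered leaf, and 0.0714% and 0.1% in droughted leaf. The last 2 shares differ although the member sums hardly do. The predicted-mRNA sum was 15683648 in drought library 1 and 11174504 in drought library 2, and its most abundant row alone had 9405864 and 5253077. With the 3 rows above a mean of 100000 left out, the members took 1.22% and 1.11% in watered libraries 1 and 2, and only 0.202% and 0.211% in the drought pair. By that measure the share of the set was about the same in both libraries of a treatment and lower in both drought libraries, a fall that the rule fixes in direction.

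No member was silent in both drought libraries. The count of members listed at 0 in both was 0 of 155, and 5 members were listed at 0 in a single drought library, 4 of them in drought library 1 and 1 in drought library 2. A listed 0 allows up to 3 reads, a value of 3.33 in drought library 1 and of 2.52 in drought library 2, for counting error only. Outside the rule, 71 distinct predicted mRNAs with some well-watered signal were at 0 in both drought libraries. The highest of them by its lower well-watered value had 45 and 76 in the watered libraries, just under the entry level of 50.

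Near-silence was reached by 7 members, with values of 5 or less in both drought libraries. This count depends on the entry level: it was 18, with 3 of them at 0 in both, at a well-watered minimum of 30, and 3 at a minimum of 100. The deepest fall was that of XM_010097271.2, which went from 316 and 273 in the watered libraries to 1 and 1 in the drought libraries. Its mean fell from 294.5 ± 30.4 to 1 ± 0 (SD, n = 2), so that 0.34% was left. Those drought values stand for about 2 reads in all, with an exact 95% Poisson interval of 0.242 to 7.22 reads, so the size of its fold is poorly fixed.

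The next deepest fall began from a higher level. This member, ranked 33 by starting level, went from 528 and 388 to 3 and 5, which are about 9 reads with an interval of 4.12 to 17.1. It kept 0.873%. These were the only 2 of the 155 members left below 1%.

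The other 5 near-silent members began lower. One went from 149 and 76 to 0 and 3, and another from 104 and 143 to 2 and 2. The third had 53 and 57 in watered leaf and 0 and 4 in droughted leaf. The remaining pair went from 73 and 58 to 2 and 3 and from 65 and 59 to 3 and 4. Each of these 5 rested on 4 to 8 drought reads in all. Their remaining levels lay between 1.33% and 5.65%.

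Most members were lowered rather than silenced. The median remaining level, the drought mean as a percentage of the well-watered mean, was 17.0%, with quartiles of 10.7% and 22.4%. It was under 5% in 9 members, under 10% in 30 and from 10% to under 25% in 104. In the other 21 it was 25% or more, up to 31.3%, close to the ceiling that the rule sets. Taken with each drought library alone, the median remaining level was 15.3% in drought library 1 and 17.8% in drought library 2. Over all 11914 distinct predicted mRNAs at the same entry level the median was 97.7%.

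**Figure D3:**
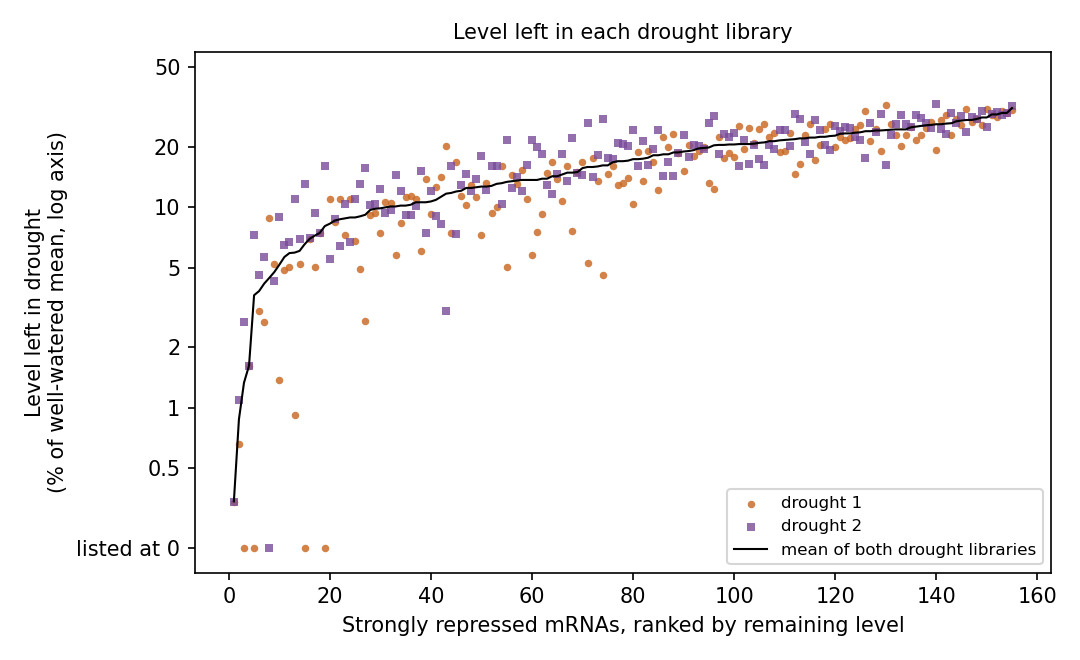
Level left in drought as a percentage of the well-watered mean (log axis) for the 155 strongly repressed mRNAs, ranked by the mean of both drought libraries (line). Circles are drought library 1 and squares drought library 2, and values listed at 0 are drawn at the bottom. The line rises steeply over the first few members from 0.34% and more slowly from 10% to 31.3%, and the points scatter most at its low end.

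In absolute terms a clear signal was left in many members. Both drought values were at least 50 in 44 members and at least 100 in 24, while both were at most 10 in 17. Within the range that the rule leaves, the depth of the fall was nearly unrelated to the starting level. Spearman's rho between starting mean and remaining percentage was 0.108 across the 155 members. This is a description across members that share the same 4 libraries, and the starting mean enters both measures. The rule also caps the remaining percentage of every member, so rho does not speak for predicted mRNAs outside the set. By starting level, the median remaining percentage was 17.0% at 50 to under 100, 13.7% at 100 to under 200 and 17.0% at 200 to under 500. It was 18.4% at 500 to under 1000 and 20.3% at 1000 and above. The members under 5% all began below 500, and the lowest at 1000 and above was the third-ranked member with 6.96%.

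The groups did not overlap in any member, as the rule requires, and 30.6% of the 11914 predicted mRNAs at the entry level were likewise lower in drought without overlap. The gap between treatments, the lower well-watered over the higher drought value, had a median of 4.48. It was under 4 in 65 members, at least 5 in 66, at least 10 in 14 and at least 20 in 4. On the log2(value + 1) scale the median change was -2.5, within a range of -7.2 to -1.63, and the median over 20946 tested predicted-mRNA rows was -0.01. A limma fit over all tested rows called 155 of 155 members lower in drought at an adjusted p under 0.05, against 4.97% of the tested predicted-mRNA rows, 5.19% of their distinct sets and 5.19% of all tested rows. The rule used this same contrast, and all members pass the filter on low values through their well-watered level, so nothing follows from that count. With 1 library left out, a group holds a lone library and the fit has 1 residual degree of freedom. Few or no calls remained then, so the calls need all 4 libraries. The median change of the sets that met the rule in the 3 libraries left was -2.39 to -2.23, again fixed in direction by the rule.

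Libraries of one treatment were closer for the members in the well-watered pair than in the drought pair. The well-watered values lay within 1.5-fold of each other in 141 members, or 91.0%, against 95.2% of the 11914 predicted mRNAs at the same entry level. A difference of more than 2-fold was seen in 0 members, against 0.336% of the 11914 (all folds here are of value + 1). The drought values lay within 1.5-fold in 104 members, or 67.1%, against 88.8% of the 11914. They differed by more than 2-fold in 22 members, or 14.2%, against 1.91%. The median absolute log2 difference was 0.22 in the well-watered pair and 0.35 in the drought pair. The latter was 0.69 when library totals set the scale and 0.54 with predicted-mRNA totals, for the members chosen on those scales. Over the 11914 predicted mRNAs at the same entry level the differences on the deposited scale were 0.17 and 0.22.

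The spread of the drought pair was widest in the members with the lowest drought means. With drought means of 1 to under 10, the median log2 difference of the drought pair was 0.7 in 25 members and 1.0 in 2128 other predicted mRNAs at that drought level. At 10 to under 30 the values were 0.49 in 59 members and 0.56 in 2462 others, and at 30 to under 100 they were 0.26 in 44 members and 0.34 in 4866 others. At 100 and above, 27 members had 0.31 and 8761 others, with means under 1500, had 0.2. The members were thus closer than others in the 3 lower bands and less close in the highest. The rule caps the higher drought value of a member, so these differences are not free of the choice. The bands are also wide, and levels of members and others were not matched within a band.

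In a few members the fall was much deeper in 1 drought library. The drought values differed by more than 3-fold in 8 members listed above 0 in both, with drought library 1 the lower in 7 of them and drought library 2 in 1. One member went from 109 and 110 in watered leaf to 1 in drought library 1 and 12 in library 2. Another began at 313 and 275, and 8 was left in drought library 1 but 46 in library 2. The only member of the 8 with the opposite order began at 95 and 102, with 20 left in drought library 1 and 3 in library 2. In each of the 3, both drought values lay below both well-watered ones, as the rule requires. The depth of the fall differed between the drought libraries. Of the 13th member by starting level, with 857 and 1137 in the watered libraries, 75 and 199 were left.

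Watered library 1 was the higher of its pair in 108 members and library 2 in 45, with 2 equal. That is 69.7%, against 52.3% of the 11914 predicted mRNAs at the same entry level. In the drought pair library 2 was the higher in 89 members and library 1 in 59, with 7 equal, which is 57.4% for library 2. The members have lower drought values than most of the 11914, so this share was set beside that of other predicted mRNAs at like drought means. At 1 to under 10 drought library 2 was higher in 20 of 25 members, or 80.0%, against 52.8% of 2128 others. At 10 to under 30 the shares were 57.6% and 54.2%, and at 30 to under 100 they were 52.3% and 51.5%. At 100 and above they were 44.4% of members and 46.7% of others. The lean in the drought pair was thus seen in the 25 members with the lowest drought means, and in the other bands the members differed from the others by a few percentage points in either direction. With 2 libraries per treatment these are counts for single libraries, and their source was not tested.

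**Figure D4:**
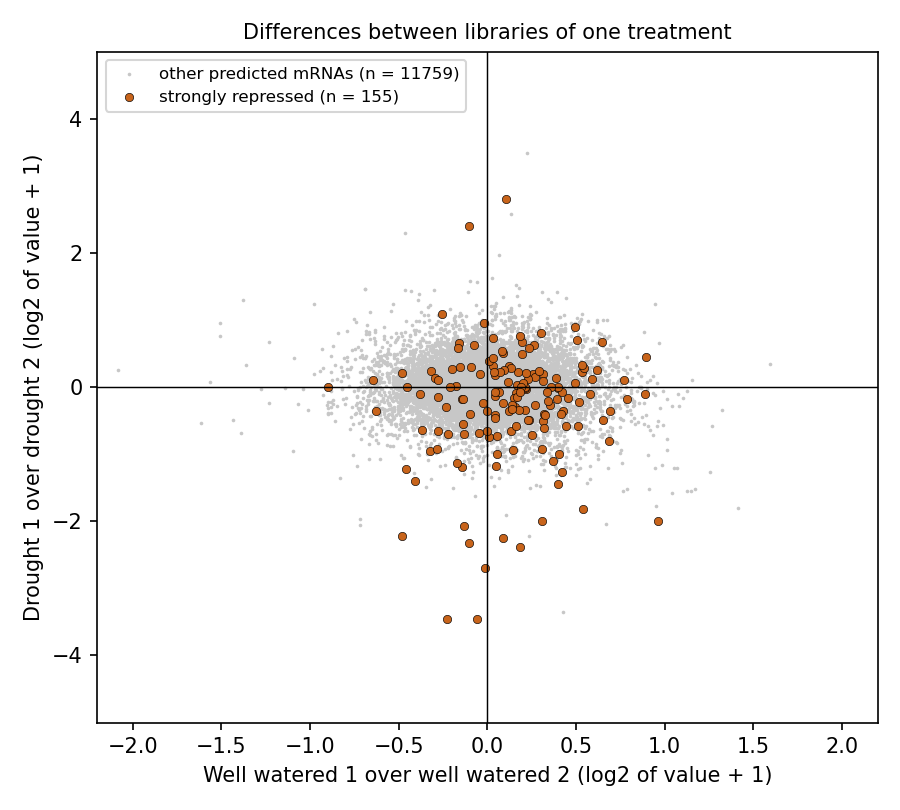
Log2 ratio of drought library 1 over 2 (vertical) against that of watered library 1 over 2 (horizontal), on values + 1, for the 155 strongly repressed mRNAs (orange) and 11759 other predicted mRNAs at 50 or more in both watered libraries (grey; 2 lie outside the axes). The orange points reach further along the vertical axis than along the horizontal one and lie more often to the right of 0, in 108 of 155 members.

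Choosing members on 3 libraries and reading the fourth gave a library that the choice had not used, while the libraries it was set against were still those of the choice. Without drought library 2, 255 distinct predicted mRNAs met the rule. In the library left out, 254 of the 255 lay below both well-watered values, against 44.0% of the 11659 predicted mRNAs not so chosen. The median remaining level was 20.3% in drought library 1, which had chosen them, and 25.1% in drought library 2, which had not. At most 50% was left in drought library 2 in 236 of the 255, or 92.5%, against 4.36% of those not chosen. Those not chosen lack the strongest falls, and the remaining levels use the well-watered values of the choice. The choice alone thus widens these contrasts, and they are no test of the fall.

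Counts and limits were alike from the other drought library. Without drought library 1, 215 met the rule, and in drought library 1 212 of these lay below both well-watered values, against 40.4% of those not chosen. Their median remaining level was 20.5% both in drought library 2 and in the library left out. In 198 of them at most 50% was left in drought library 1.

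Leaving out a watered library gave the mirror image. Without watered library 2, 239 met the rule, and 237 of them were above both drought values in watered library 2, against 37.5% of the others. Measured against that library the median remaining level was 23.0%, where the library used for the choice gave 19.3%. Without watered library 1, 205 met the rule and 203 were above both drought values there, against 39.8%. The median was 18.6% against watered library 1 and 20.4% against the library used. Of the sets chosen on 3 libraries, 60.8% to 75.6% met the rule with all 4. Nearly all chosen sets thus lay on the drought-lower side in the library left out, set against libraries that had chosen them. The sets not chosen lack the strongest falls and include rises, so their shares are no neutral background. The size of the fall was smaller in the library left out for drought library 2 and watered library 2. Libraries of 1 treatment also share whatever else set the groups of plants apart, which cannot be told apart from watering.

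The edge of the set was not a natural break. Just inside the ratio of 3 was a member with 106 and 102 in watered leaf and 20 and 34 in droughted leaf, a ratio of exactly 3. Just outside was a predicted mRNA with 86 and 95 against 16 and 29, a ratio of 2.966. There were 7 distinct sets with ratios of 3 to under 3.1 and 10 with ratios of 2.9 to under 3. At the entry level, a member with 56 and 50 in watered leaf and 7 and 11 in droughted leaf was taken, and a predicted mRNA with 49 and 64 against 12 and 8 was not.

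Some members were represented by several rows. Of the 155 sets of values, 19 belonged to more than 1 predicted-mRNA row, and these 19 sets held 43 rows. Of the 19, 16 were shared by 2 rows and 2 by 3 rows. The largest group had 5 rows, each with 149 and 113 in watered leaf and 10 and 29 in droughted leaf. Rows with identical values count the same reads or cannot be told apart by them, so each set stands for 1 observation. When sets whose 4 values all lay within 10% of each other were merged too, 151 remained.

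Transcripts put together by an assembler gave a second view of some members. A row of this kind had exactly the 4 values of a member in 9 cases, each at a different assembled locus, which is 5.81% of members against 9.01% of the 11914. Of those 9 loci, 2 held further transcripts, 3 in all, with values of their own. They had 489 and 421 against 39 and 39, 480 and 355 against 87 and 108, and 316 and 251 against 54 and 70 in the watered and drought libraries. All 3 met the rule as well. Their reads may be those of the members, so they are no separate evidence. Among all assembled transcripts, 79 of 4017 distinct sets at the same entry level met the rule, or 1.97%.

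Rows with the next higher or lower accession number mostly did not share the fall. Of 134 such rows with other values and at least 50 in both watered libraries, 9 were themselves members, or 6.72%, where 1.19% of all 15092 rows at that level were. The other 125 kept a median of 94.7%, against 97.7% over all 11914 distinct predicted mRNAs at that level. Less than 50% was kept by 9 of the 125. The like share over all predicted mRNAs was not worked out, so nothing is read from that count. The files do not say whether neighbouring accession numbers belong to one gene.

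Fewer predicted mRNAs were raised by the mirrored rule. With the treatments exchanged, 106 distinct sets from 139 rows met it, against 155 sets from 179 rows for the fall. The entry level then applies to the drought libraries, so these counts are not shares of the same rows, and the difference was not tested.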

How the data were processed

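Leaf RNA of 4 libraries was sequenced, 2 per treatment, grouped by the treatment label. Per the submitters' processing notes, the tools were bcl2fastq 2.20, the aligner HISAT2 and the counter featureCounts. Strand use, settings, annotation and genome build were not given in the sources used here. The deposited files hold 1 score per row, which per the file headers is a normalized value, rounded to whole numbers. The worth of a read was found from the spacing of the values, with a search checked on simulated steps. Reads were not recovered exactly, since steps below 1 merge neighbouring counts, so no count model was fitted, and the test planned for normalized values was used.

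The members and lists were chosen with earlier results of these data known. No annotation was used here, so the planned product lists and markers could not be applied, and the planned naming rule gave 2 identifiers: the highest well-watered mean, and the largest fall on the log2(value + 1) scale among means of at least 100. Other members given by rank or value, the level bands and the reading of left-out libraries were chosen after values were seen. limma 3.58.1 (R 4.3.3) with a trended spread modelled log2(value + 1) in all 4 libraries for the 28254 rows with at least 10 in at least 2 libraries, with Benjamini-Hochberg adjustment and a threshold of 0.05, and was tested on simulated data. P-values set the change against the spread between 2 libraries per group, drawn toward that of other rows at like levels. The prior had 5.96 and each row 2 degrees of freedom. Intervals and floors cover counting error only. Alternatives covered scaling, the rule's limits, filter, pseudocount, spread, row set and each library left out.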

Additional observations from a re-analysis of the deposited data

How the results depend on the processing

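With all 4 libraries, 59 of 78 recomputed values stayed within 1.5 times of the reported count, or within 1 SD between libraries or pairs for medians. Some of these values could not move, so the tally is no measure of how stable the results are. No set at the reported well-watered minimum was at 0 in both drought libraries. A changed ratio or a higher minimum therefore could not alter that count. Sets at 5 or less met every ratio tried through that minimum alone, so their count was fixed when only the ratio changed. Of the scalings, median-ratio factors of 0.999 to 1.001 and upper-quartile factors of 0.993 to 1.016 each gave 155 members. Of these, 155 and 154 were among the reported members. Factors so close to 1 hardly change the values, so these 2 scalings could barely move the results. Library totals gave 123 members, of which 112 were among the 155, with a median remaining level of 15%, a median log2 fold change of -2.82, a median drought-pair difference of 0.69 and 393 predicted-mRNA rows lower in drought (1041 as reported). Predicted-mRNA totals, in which 1 row holds 47.0% to 60% of the sum, gave 125 members, 120 of them among the 155, a median log2 fold change of -2.78 and a drought-pair difference of 0.54. No filter left 555 predicted-mRNA rows lower and no trend 297, with 140 and 124 of the 155 members called. A well-watered minimum of 30 gave 3 members listed at 0 in both drought libraries and 18 at 5 or less. A minimum of 100 gave 97 members, 97 of them called, and 3 at 5 or less. A ratio of 2 gave 374 members, 371 called, with 29.5% left, and a ratio of 4 gave 90, all 90 called, with 12.1% left. Changed limits of the rule leave the fit as it was, in which 4.97% of tested predicted-mRNA rows were called lower. At every setting the members were chosen on the contrast that the fit tests, so nothing follows from how many were called. Merging sets within 10%, chosen after seeing the data, gave 151 members.

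Leaving out 1 library gave 205 to 255 members, 1 to 4 of them at 0 and 9 to 15 at 5 or less in the drought libraries used. The median remaining level was 19.3% to 20.5%, the median log2 fold change -2.39 to -2.23, the well-watered-pair difference 0.21 to 0.23 and the drought-pair difference 0.32 to 0.36. The limma test then called 0 to 5 members and 0 to 5 predicted-mRNA rows lower, with 1136 to 2401 rows at an unadjusted p under 0.05. These fits assume that a lone library varies like the other group. Fewer libraries in the rule make it easier to meet, and the cause of the other changes was not tested. Values near 0 rest on a few reads, so depth limits any fold of the near-silent members. No paired analysis was possible because samples carry no replicate numbers in their labels.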
